A study of Arabidopsis thaliana with 16 samples.

Results

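Small heat shock proteins are chaperones with an alpha-crystallin domain that bind unfolding proteins and hold them until ATP-driven chaperones such as HSP70 and HSP101 refold them. In Arabidopsis, separate classes work in the cytosol and nucleus, in mitochondria, in plastids and in the endoplasmic reticulum. Most of their genes are nearly silent in unstressed leaves, are switched on by heat shock factors that bind heat shock elements, and are also active in maturing seeds. The 10 genes described here were chosen by their gene IDs, of 33602 genes in the deposited count table, and 7 of them passed a filter on low counts. HSP17.4, HSP17.6C, HSP17.8 and HSP18.2 encode class I proteins of the cytosol. HSP17.6A and HSP17.6II encode class II proteins of the cytosol. HSP23.5 and HSP23.6 encode mitochondrial proteins, HSP21 a plastid protein and HSP22 a protein of the endoplasmic reticulum.

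Transcripts were counted in whole Arabidopsis thaliana seedlings of the cultivar Col-0, aged 6 days, raised at 22 °C under constant white light on half-strength MS medium. The 4 genotypes were wild type (WT), the double mutant mrg1 mrg2, the single mutant pif4, and the combination mrg1 mrg2 pif4. MRG1 and MRG2 are related chromodomain proteins that read methylated histone H3, and PIF4 is a bHLH factor that promotes growth in warmth. Each was kept at 22 °C or moved to 28 °C for 3 h, which made 8 groups of 2 libraries. The labels name no alleles and leave unsaid if a group's libraries stem from different plates, so p-values measure only the spread between libraries. A temperature of 28 °C is warm but is not a heat shock for this plant.

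Library totals ran from 7186066 to 11363353 counts, and a floor of 3 counts was worth 0.264 to 0.417 CPM (a gene's count scaled to the library total). MRG1 fell in mrg1 mrg2 at 22 °C, from 21 ± 1.3 CPM (SD, n = 2) in WT to 5.58 ± 1.56 (edgeR's quasi-likelihood test, adjusted p = 6.05e-11), and MRG2 fell from 10.4 ± 2.08 to 0.645 ± 0.322 CPM (adjusted p = 8.95e-12). Both were also low in mrg1 mrg2 pif4, with 4.6 ± 0.331 CPM of MRG1 and 0.271 ± 0.0824 CPM of MRG2 at 22 °C. PIF4 did not pass the test between WT and the libraries labelled pif4, with 32.5 ± 2.94 against 27.1 ± 3.91 CPM at 22 °C (adjusted p = 0.302) and 89.5 ± 8.85 against 74.2 ± 4.09 CPM at 28 °C (adjusted p = 0.319). In mrg1 mrg2 pif4 it held 38.8 ± 3.8 CPM at 22 °C, higher than in WT (log2 0.28 ± 0.10, adjusted p = 0.0453), and at 28 °C 87 ± 1.27 CPM, lower than in mrg1 mrg2 (-0.33 ± 0.08, 0.00826). Counts over the whole gene therefore do not check the pif4 label, and each direction given below for pif4 or mrg1 mrg2 pif4 is one between libraries so labelled. The 3 shoot markers summed to 17500 to 26200 CPM and the 3 root markers to 1990 to 3290 CPM over the 16 libraries. They moved between groups, and their values at 22 °C are given with the comparisons there. With warmth in WT the root sum went from 3220 to 3290 CPM down to 1990 to 2120, and the shoot sum from 17500 to 18100 up to 20400 to 21000. The root sum was also lower at 28 °C in mrg1 mrg2 and mrg1 mrg2 pif4, but overlapped in pif4. The shoot sum was lower at 28 °C in pif4 and mrg1 mrg2 pif4 and overlapped in mrg1 mrg2. Their part in the members' warm responses was not tested.

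The letters of heat shock elements stood before each of the 10 genes, and long ones before 4. A heat shock element is a run of inverted 5-base units around GAA and TTC. Searched on both strands were a short form of 2 units (GAANNTTC or TTCNNGAA), a long form of 3 in which GAANNTTC is followed by NNGAA or TTCNNGAA by NNTTC, so that it contains the short form, and the G-box CACGTG, a class of site bound by PIF proteins. In the 400 bases before the start codon, the short form was present in 10 of 10 members, against 28.6% of 27437 protein-coding genes with such a window. The long form was present in 4 of 10 against 0.955%, and the G-box in 1 of 10 against 7.87%. Of 9 other genes of the same superfamily, 6 held the short form and 0 the long form. A short form began 150 to 177 bases before the start codon in each member but HSP18.2. The sites of the long form are shown because they set HSP17.4 and HSP17.6C, which had the largest fitted rises in WT of the 7 members tested, beside HSP18.2, which did not pass the test, and HSP22, which had too few reads to be tested. HSP17.4 and HSP17.6C also led in pif4 and mrg1 mrg2 pif4. In mrg1 mrg2 the largest fitted log2 rises were those of HSP17.6II (6.25) and HSP17.6A (6.18). Neither gene holds a long form, and both had 0 reads there at 22 °C. The long forms of HSP18.2 and HSP22 lie after the annotated gene start, within the annotated leader, and transcript starts were not measured here. Each site is written 5′ to 3′ on the strand of its gene, with the fixed bases of the search in capitals, from the RefSeq genome TAIR10.1.
HSP17.4 first site, chr3:16984954-16984966, minus strand: GAAgcTTCttGAA
HSP17.4 second site, chr3:16984873-16984885, minus strand: GAAatTTCaaGAA
HSP17.6C, chr1:19980246-19980258, plus strand: GAAacTTCttGAA
HSP18.2, chr5:24062396-24062408, plus strand: GAAacTTCctGAA
HSP22, chr4:6370387-6370399, plus strand: TTCaaGAAacTTC

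The promoters of HSP17.4 and HSP17.6C are printed in full because these genes went from almost no reads at 22 °C to clear levels at 28 °C, and because they were the members with a long element ahead of the annotated gene start. Each line gives the 250 bases before that start, 5′ to 3′ on the strand of the gene, with short and long heat shock elements in capitals. In this window 2 of 10 members held the long form, against 0.386% of 27437 promoters, and 5 of 10 held the short form, against 16.2%.
HSP17.4 promoter, chr3:16984868-16985117, minus strand: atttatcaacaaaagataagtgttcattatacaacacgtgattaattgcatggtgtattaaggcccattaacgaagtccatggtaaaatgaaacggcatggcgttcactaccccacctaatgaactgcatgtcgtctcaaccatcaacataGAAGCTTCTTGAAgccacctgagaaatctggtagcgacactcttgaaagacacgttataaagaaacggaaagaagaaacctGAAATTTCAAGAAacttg
HSP17.6C promoter, chr1:19980049-19980298, plus strand: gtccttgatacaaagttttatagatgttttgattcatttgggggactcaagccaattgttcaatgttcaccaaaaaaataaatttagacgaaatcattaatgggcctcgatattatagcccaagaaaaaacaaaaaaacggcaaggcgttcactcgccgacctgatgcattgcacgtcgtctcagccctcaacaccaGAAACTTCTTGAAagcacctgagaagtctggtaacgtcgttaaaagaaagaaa
HSP17.4 carried 2 long elements, and the G-box (1 of 10 members against 6.49% of promoters) lay 350 bases before its start codon. HSP17.6C carried 1 long element. A match is a run of letters and not a measured binding site. Annotated gene starts lay 76 (HSP21) to 309 (HSP18.2) bases before the start codon, which is why the counts differ between the windows.

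**Figure D1:**
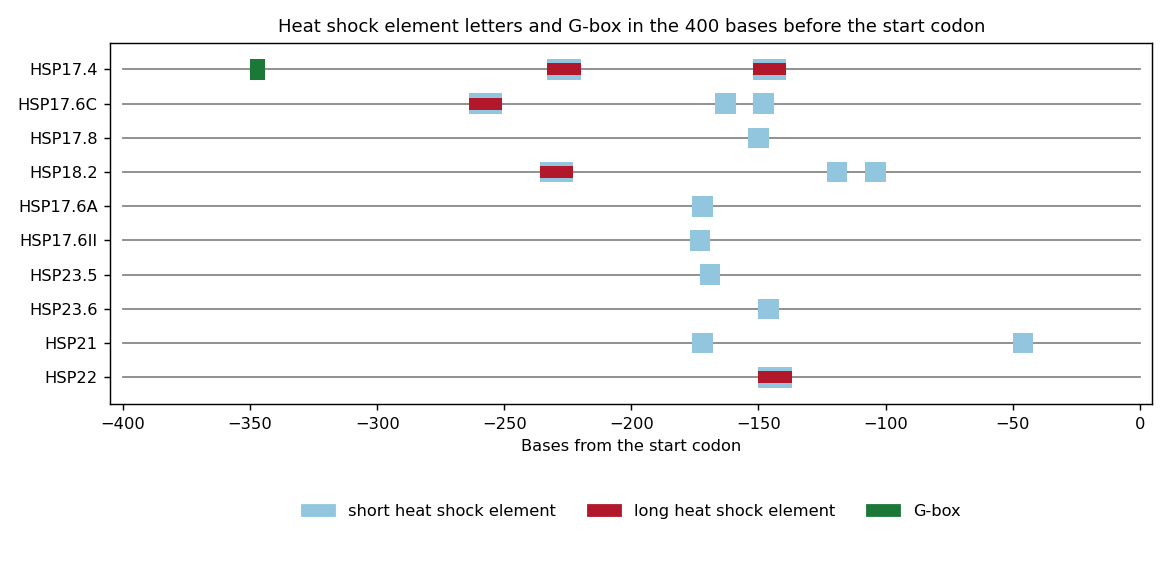
Positions of heat shock element letters (short form in blue, long form in red) and of the G-box (green) in the 400 bases before the start codon of each of the 10 genes, with the start codon at 0 on the right. Each gene has at least 1 short form, and HSP17.4, HSP17.6C, HSP18.2 and HSP22 have a long form.

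The genes are compact and some are close copies. HSP17.4 lies at chr3:16984118-16984867 on the minus strand and is 1 exon with no intron, as are the other 5 cytosolic members and HSP22. HSP21, HSP23.5 and HSP23.6 each have 2 exons and 1 intron. HSP17.6II (chr5:3882231-3883111) and HSP17.6A (chr5:3883957-3884838) lie next to each other on the minus strand, 846 bases apart, and their coding sequences matched at 85.7% of aligned positions. HSP17.4 and HSP17.6C matched at 85.0%, and HSP23.5 and HSP23.6 at 70.8%. The longest exact run shared by HSP17.6II and HSP17.6A was 33 bases, and HSP17.8 shared 43 bases with HSP17.6A-CI, so reads from such stretches could have been placed on either gene. HSP17.4 is also overlapped on the other strand, by 453 bases of the lncRNA AT3G07365 (not analysed here) and by 60 bases of the protein-coding gene AT3G46220. The strand setting of the counting is not given in the sources used here, so sense and antisense reads at HSP17.4 cannot be told apart. AT3G46220 itself held 20.9 to 23.8 CPM as group means over the 8 groups.

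In WT, 5 of the 7 members that passed the filter on low counts rose after 3 h at 28 °C. They were HSP17.4, HSP17.6C, HSP17.8, HSP17.6A and HSP23.5. Of all 20075 genes tested, 13.3% rose in WT. The median fitted log2 change of the 7 members was 2.08, against 0.01 over all genes tested. In each of mrg1 mrg2, the libraries labelled pif4 and those labelled mrg1 mrg2 pif4, 6 of 7 rose, with HSP17.6II added, against backgrounds of 12.8%, 13.2% and 12.9%. The members' medians there were 3.09, 4.89 and 3.06 as fitted, and 2.69, 3.57 and 3.06 with members at 0 reads at 22 °C set to their lower bound, against 0, 0.01 and 0.01 over all genes. In each genotype 6 of the 7 had both 28 °C libraries above both 22 °C libraries, which held for 25.2%, 31.3%, 27% and 34.4% of all genes tested. HSP17.4, HSP17.6C, HSP17.6A and HSP17.6II had 0 to 3 reads in each 22 °C library and passed the filter only through their 28 °C groups. The filter thus selected for their rise, and the counts and medians above describe the 7 genes that passed and do not support a statement on all 10. In bulk seedlings, more cells that express a gene and more RNA per cell cannot be told apart.

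**Figure D2:**
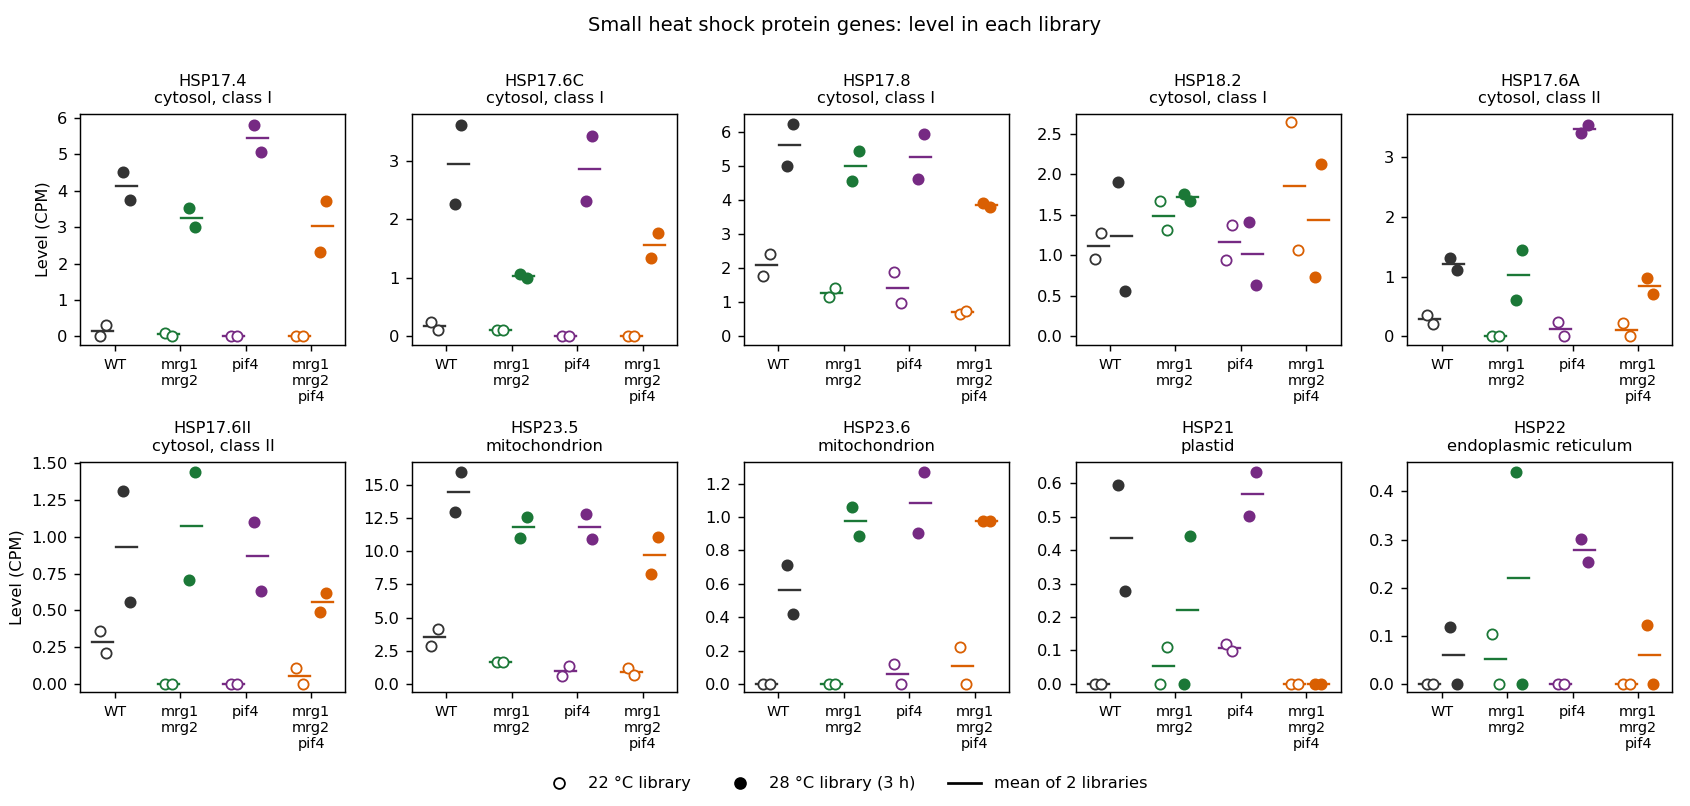
Level in CPM (y axis, one scale per gene) of each of the 10 genes in the 16 libraries, by genotype (x axis); open points are 22 °C libraries, filled points 28 °C libraries and bars the mean of 2. In 7 of the 10 panels both 28 °C libraries lie above both 22 °C libraries in each genotype; HSP18.2 overlaps.

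HSP17.4 (AT3G46230), the class I gene with 2 long elements printed above, had the largest ratio between the temperatures over all libraries, 73.2 (291 reads against 4). At 22 °C it had 0 and 3 reads in the WT libraries, 1 and 0 in mrg1 mrg2, and 0 in each of the 4 libraries labelled pif4 or mrg1 mrg2 pif4. After 3 h at 28 °C there were 38 and 27 reads in WT, 40 and 27 in mrg1 mrg2, 58 and 40 in pif4, and 19 and 42 in mrg1 mrg2 pif4. No 28 °C library was as low as any 22 °C library. The ratio of read shares, which rests on 3 reads at 22 °C in WT and 1 in mrg1 mrg2, was 24.8 in WT (exact 95% interval 8.11 to 123, counting error only, adjusted p = 2.65e-07 by edgeR's quasi-likelihood test) and 61.7 in mrg1 mrg2 (10.7 to 2470, adjusted p = 3.99e-07). Against the floor of 3 counts over the group it was at least 34.2-fold higher in pif4 (adjusted p = 7.68e-10) and at least 19.3-fold higher in mrg1 mrg2 pif4 (adjusted p = 2.72e-07). Ratios and lower bounds set no order among the genotypes. The fitted log2 rise in WT was 4.57, 3.71 without WT 22 °C replicate 1 and 8.27 without replicate 2, and that in mrg1 mrg2 was 5.60, 7.90 without mrg1 mrg2 22 °C replicate 1 and 4.79 without replicate 2, each with a call.

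HSP17.6C (AT1G53540, chr1:19980299-19981199, plus strand), the class I gene nearest to HSP17.4 in sequence, was also almost silent at 22 °C. It had 2 and 1 reads in WT at 22 °C, 1 and 1 in mrg1 mrg2, and 0 in the 4 libraries labelled pif4 or mrg1 mrg2 pif4. At 28 °C it had 19 and 26 reads in WT, 12 and 9 in mrg1 mrg2, 23 and 27 in pif4, and 11 and 20 in mrg1 mrg2 pif4. The groups at 28 °C lay above those at 22 °C in each genotype, and mrg1 mrg2 was the lowest of the 28 °C groups. The ratio of read shares was 17.1 in WT (5.5 to 86.2, adjusted p = 4.7e-06) and 9.66 in mrg1 mrg2 (2.36 to 85, adjusted p = 0.00565, and 0.0587 without mrg1 mrg2 22 °C replicate 1). In pif4 it rose to 50 reads over the group from 0 (adjusted p = 2.16e-07), and in mrg1 mrg2 pif4 it was at least 9.83-fold higher (adjusted p = 2.92e-05).

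HSP17.8 (AT1G07400, chr1:2274926-2275783, plus strand) was the class I gene that was already on at 22 °C and rose as well. Its level at 22 °C was 1.79 and 2.43 CPM in WT, 1.15 and 1.42 in mrg1 mrg2, 1.88 and 0.986 in pif4, and 0.659 and 0.745 in mrg1 mrg2 pif4. The 28 °C levels were 5 and 6.26 CPM in WT, 4.58 and 5.44 in mrg1 mrg2, 4.62 and 5.96 in pif4, and 3.91 and 3.82 in mrg1 mrg2 pif4. The temperatures did not overlap in any genotype. The log2 rise was 1.44 ± 0.32 in WT (± is the standard error of the fit, adjusted p = 0.000638), 1.92 ± 0.35 in mrg1 mrg2 (3.81e-05), 1.93 ± 0.34 in pif4 (3.59e-05) and 2.40 ± 0.42 in mrg1 mrg2 pif4 (2.83e-05).

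HSP18.2 (AT5G59720, chr5:24062323-24063300, plus strand) was the class I member that stayed out of this pattern, although it holds a long heat shock element within the 400-base window. At 22 °C it had 8 and 12 reads in WT, 16 and 12 in mrg1 mrg2, 8 and 14 in pif4, and 24 and 10 in mrg1 mrg2 pif4. At 28 °C it had 16 and 4, 20 and 15, 14 and 5, and 6 and 24 reads in the same order. The temperatures overlapped in each genotype. Over all libraries 104 reads at 28 °C stood against 104 at 22 °C, a ratio of read shares of 1.01 (exact 95% interval 0.759 to 1.33, counting error only, as do all such intervals and floors here). Its fitted log2 changes ran from -0.29 ± 0.48 in mrg1 mrg2 pif4 to 0.24 ± 0.59 in WT, with adjusted p from 0.702 to 0.912.

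The class II neighbours HSP17.6A (AT5G12030) and HSP17.6II (AT5G12020) had similar counts in most groups and stood furthest apart in pif4 at 28 °C. At 22 °C each had 3 and 2 reads in WT and 0 in mrg1 mrg2. HSP17.6A had 2 and 0 reads in pif4 and 2 and 0 in mrg1 mrg2 pif4, and HSP17.6II had 0 and 0 and 1 and 0. At 28 °C in WT, HSP17.6A had 11 and 8 reads and HSP17.6II 11 and 4, and in mrg1 mrg2 they had 7 and 13 and 8 and 13. Their coding lengths are 471 and 468 bases, so these reads can be set side by side. In pif4 at 28 °C HSP17.6A had 34 and 28 reads and HSP17.6II 11 and 5, and in mrg1 mrg2 pif4 they had 8 and 8 and 4 and 7. Both pif4 libraries at 28 °C were above each other library for HSP17.6A, and HSP17.6II showed no such step. The difference between the genes was not tested.

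The class II rises rest on few reads at 22 °C. For HSP17.6A the log2 rise was 2.11 ± 0.77 in WT (adjusted p = 0.0357). This call was lost by DESeq2 (0.0944), with no filter (0.0557), and without WT 22 °C replicate 1 (0.0811) or 2 (0.198) or WT 28 °C replicate 1 (0.143) or 2 (0.0783). The rise was at least 6.14-fold in mrg1 mrg2 (adjusted p = 0.00122), 32.4-fold in pif4 (8.6 to 274, adjusted p = 6.8e-07) and 7.61-fold in mrg1 mrg2 pif4 (1.79 to 68.2, adjusted p = 0.0331), where the last pair of ratios rests on 2 reads at 22 °C each and is not to be ranked against the bound. In pif4 the fitted log2 rise of 4.89 became 8.09 without 22 °C replicate 1 and 3.84 without replicate 2. In mrg1 mrg2 pif4 it went from 2.75 to 5.88 without 22 °C replicate 1. The call in mrg1 mrg2 pif4 was lost with no filter (0.0511) and without mrg1 mrg2 pif4 22 °C replicate 2 (0.246) or 28 °C replicate 1 (0.114) or 2 (0.0655). HSP17.6II had a log2 difference of 1.77 ± 0.78 in WT (adjusted p = 0.0878), was at least 6.44-fold higher in mrg1 mrg2 (0.000622) and at least 5.58-fold higher in pif4 (0.00153). In mrg1 mrg2 pif4 the ratio was 10.5 (1.52 to 450, adjusted p = 0.0485), which rests on 1 read at 22 °C and is not to be ranked against these bounds, and that call was lost without any 1 of the 4 libraries of this genotype (0.0731 to 0.262), without WT 22 °C replicate 1 (0.0539) or 2 (0.0541), with no filter (0.0927) and without the ribosomal RNA gene AT3G41768 (0.0503).

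HSP23.5 (AT5G51440, chr5:20891163-20892416, plus strand), which encodes a mitochondrial chaperone, was the most abundant member at 28 °C. Its level at 22 °C was 2.87 and 4.13 CPM in WT, 1.67 and 1.64 in mrg1 mrg2, 0.588 and 1.38 in pif4, and 1.21 and 0.638 in mrg1 mrg2 pif4. The 28 °C levels were 13 and 16 CPM in WT, 11 and 12.6 in mrg1 mrg2, 12.8 and 10.9 in pif4, and 8.31 and 11.1 in mrg1 mrg2 pif4. Both WT libraries were above those of the other genotypes at either temperature. The log2 rise was 2.08 ± 0.24 in WT (adjusted p = 9.16e-09), 2.79 ± 0.28 in mrg1 mrg2 (3.01e-10), 3.57 ± 0.31 in pif4 (1.27e-11, and 4.34 without pif4 22 °C replicate 2) and 3.37 ± 0.33 in mrg1 mrg2 pif4 (1.72e-10).

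Its mitochondrial partner HSP23.6 (AT4G25200, chr4:12916926-12918110, plus strand) stayed under the filter on low counts and so is outside the counts above. It had 0 reads in the 4 WT and mrg1 mrg2 libraries at 22 °C, 1 and 0 in pif4 and 2 and 0 in mrg1 mrg2 pif4. At 28 °C it had 6 and 3 reads in WT, 12 and 8 in mrg1 mrg2, 9 and 10 in pif4, and 8 and 11 in mrg1 mrg2 pif4. Over all libraries this was 67 reads against 3, a ratio of 22.5 (7.37 to 112). In a fit with no filter (26058 genes) its adjusted p for 28 °C against 22 °C was 0.0284 in WT, 0.00213 in mrg1 mrg2, 0.0065 in pif4 and 0.0251 in mrg1 mrg2 pif4.

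HSP21 (AT4G27670, chr4:13818825-13819971, minus strand), which protects plastid proteins, and HSP22 (AT4G10250, chr4:6370338-6371372, plus strand) were close to the floor. HSP21 had 0 or 1 read in each library at 22 °C, and at 28 °C 5 and 2 in WT, 0 and 4 in mrg1 mrg2, 5 and 5 in pif4 and 0 and 0 in mrg1 mrg2 pif4. HSP22 had 1 read in 1 of the 8 libraries at 22 °C, and at 28 °C 1 and 0, 5 and 0, 3 and 2, and 1 and 0 reads in the same order. Over all libraries the ratio of read shares was 7.04 for HSP21 (21 reads against 3, interval 2.1 to 36.9) and 12.1 for HSP22 (12 reads against 1, interval 1.79 to 516). In the fit with no filter neither passed in any genotype. A difference between genotypes was not detectable for them at this depth.

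**Figure D3:**
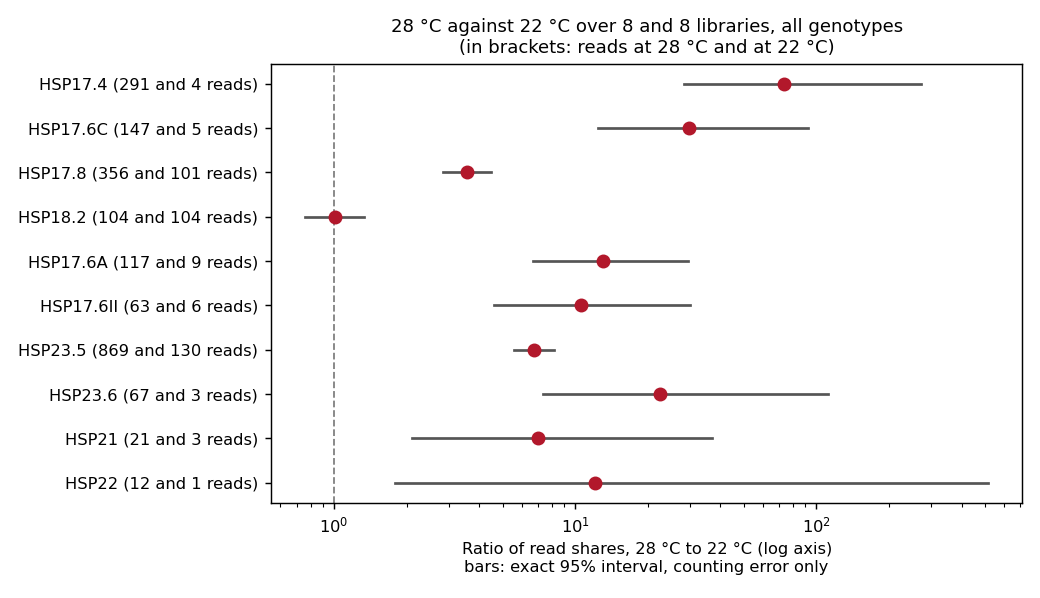
Ratio of read shares at 28 °C to 22 °C (x axis, log) for each of the 10 genes over 8 libraries at each temperature, all genotypes summed; bars are exact 95% intervals that cover counting error only. The ratio was 73.2 for HSP17.4 and 1.01 for HSP18.2, whose interval is the one that includes 1.

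Levels were set between genes per kilobase of coding length, and 3 members stood above the rest at 22 °C. Over the 8 libraries at 22 °C the mean was 2.92 CPM per kb for HSP17.8 (range 1.39 to 5.14), 2.89 for HSP18.2 (1.94 to 5.42) and 2.79 for HSP23.5 (0.929 to 6.52), whose ranges overlap, and at most 0.272 for the other 7. At 28 °C the order was HSP23.5 (18.9 CPM per kb), HSP17.8 (10.4), HSP17.4 (8.43), HSP17.6C (4.43), HSP17.6A (3.49), HSP18.2 (2.78), HSP17.6II (1.83), HSP23.6 (1.42), HSP21 (0.449) and HSP22 (0.263). The range of HSP23.5 (13.1 to 25.3) met that of HSP17.8 (8.05 to 13.2) at its edge, and the ranges of all other neighbours in the order overlapped too. HSP18.2 moved from the second place at 22 °C to the sixth at 28 °C.

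**Figure D4:**
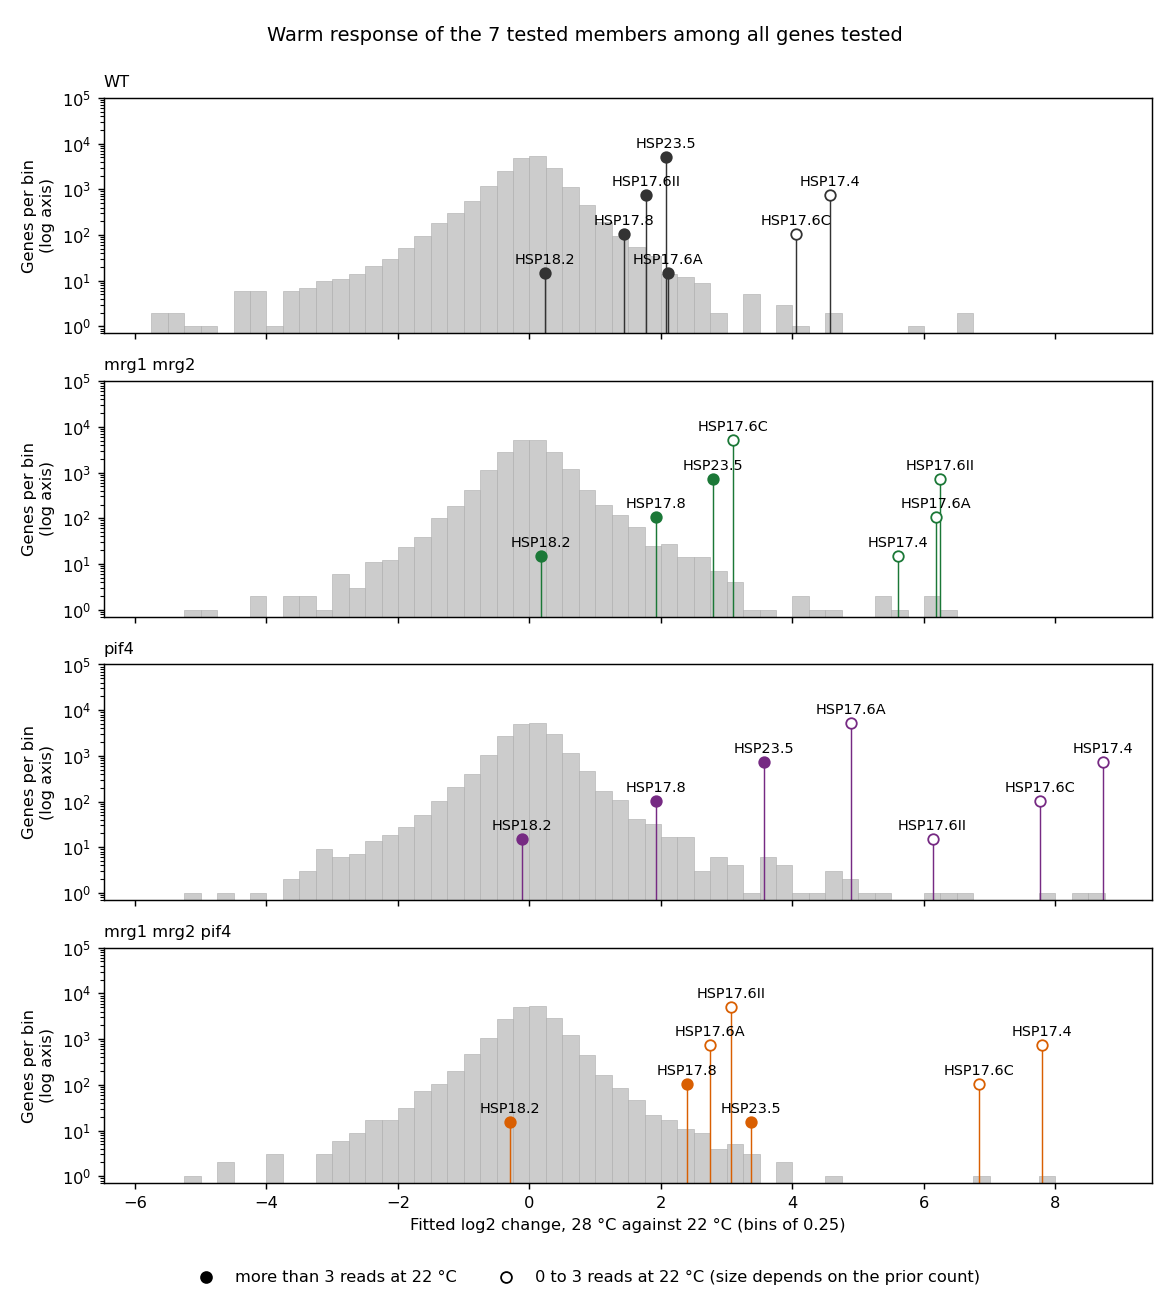
Fitted log2 change from 22 °C to 28 °C (x axis) of all 20075 genes tested (grey bars, number of genes per bin on a log axis) in each genotype, with the 7 tested members as pins; pin height carries no value. Open pins mark members with 0 to 3 reads at 22 °C, whose size depends on the prior count. HSP18.2 lies near 0 in each panel and the other 6 members lie to the right of the bulk.

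At 22 °C, HSP23.5 was lower in each mutant than in WT. It fell by 1.05 ± 0.36 on the log2 scale in mrg1 mrg2 (adjusted p = 0.0283), by 1.71 ± 0.40 in pif4 (0.00284) and by 1.91 ± 0.41 in mrg1 mrg2 pif4 (0.000787). HSP17.8 fell in mrg1 mrg2 pif4, by 1.57 ± 0.49 (0.0231), and differed by -0.69 ± 0.42 in mrg1 mrg2 and -0.53 ± 0.42 in pif4 without passing. The tissue markers moved in these comparisons too. The root marker PYK10 fell in mrg1 mrg2 (-0.37 ± 0.04, adjusted p = 8.81e-10), pif4 (-0.42 ± 0.04, 9.63e-11) and mrg1 mrg2 pif4 (-0.21 ± 0.04, 0.000115). The root marker PHT1;1 rose in mrg1 mrg2 (0.23 ± 0.09, 0.048) and did not pass in the other mutants, and the root marker IRT1 passed in none. The 3 root markers summed to 3220 to 3290 CPM in WT, 2470 to 2480 in mrg1 mrg2, 2320 to 2330 in pif4 and 2740 to 2880 in mrg1 mrg2 pif4. The 3 shoot markers summed to 17500 to 18100, 18700 to 19600, 25500 to 26200 and 20900 to 21500 CPM in the same order, and 2, 3 and 3 of them rose in the mutants. Their part in the members' values was not tested. At 22 °C, 1, 1 and 2 of the 7 members were lower in mrg1 mrg2, pif4 and mrg1 mrg2 pif4, where 12.2%, 5.05% and 7.54% of all genes tested fell. HSP18.2 did not pass in any mutant, with adjusted p from 0.405 to 0.928. The other 4 members had at most 5 reads in any group at 22 °C, so a difference between genotypes was not detectable there.

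Most of these calls were lost when a library was left out. WT 22 °C replicate 2 is the higher WT library for both genes, and without it the HSP23.5 difference was -0.75 in mrg1 mrg2 (adjusted p = 0.286) and -1.41 in pif4 (0.0869), and the HSP17.8 difference in mrg1 mrg2 pif4 was -1.32 (0.194). The HSP23.5 call was also lost in mrg1 mrg2 without its replicate 1 (0.116) or 2 (0.103) and in pif4 without its replicate 1 (0.0754). The HSP17.8 call was lost without mrg1 mrg2 pif4 22 °C replicate 1 (0.13) or 2 (0.0929). The fall of HSP23.5 in mrg1 mrg2 pif4 passed under each of the 22 alternatives tried (adjusted p from 0.000395 to 0.0354).

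In mrg1 mrg2, pif4 and mrg1 mrg2 pif4 at 22 °C, shares of 12.2%, 5.05% and 7.54% of all genes tested fell. Of 11 heat response regulators tested, 2, 1 and 1 fell in the same order. HSFA2, the heat shock factor that sustains small heat shock protein transcription after heat, was among them in each mutant. It had 12 and 23 reads in WT at 22 °C, 2 and 1 in mrg1 mrg2, 5 and 4 in pif4, and 1 and 3 in mrg1 mrg2 pif4. It fell in all 3 (log2 -3.47 ± 0.77, adjusted p = 0.000684; -1.92 ± 0.61, 0.0336; -3.09 ± 0.73, 0.00214). At 28 °C it had 32 and 34 reads in WT, 42 and 17 in mrg1 mrg2, 38 and 34 in pif4, and 29 and 13 in mrg1 mrg2 pif4, and did not pass against WT in any of them. The part of HSFA2 in the members' levels was not tested. Of 10 chaperones that work with the small ones 3, 2 and 5 fell at 22 °C, against the same shares of all genes, and 7, 8 and 5 did not pass. HSP70 and HSP90.1, which encode cytosolic ones, fell in each mutant (HSP70 by 1.08 ± 0.09, 0.53 ± 0.09 and 0.90 ± 0.09 and HSP90.1 by 0.98 ± 0.16, 1.03 ± 0.16 and 1.38 ± 0.16 on the log2 scale, in the order mrg1 mrg2, pif4, mrg1 mrg2 pif4).

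At 28 °C, 2 members differed from WT in a mutant. HSP17.6C was lower in mrg1 mrg2 than in WT, with a log2 difference of -1.51 ± 0.42 (adjusted p = 0.0114; 21 reads against 45, ratio of read shares 0.357, interval 0.202 to 0.612), which was 1 of 7 members where 7.4% of all genes fell. HSP23.5 fell in mrg1 mrg2 pif4 against WT, by 0.62 ± 0.20 (adjusted p = 0.0331), again 1 of 7, where 6.55% fell. In pif4 against WT 0 of 7 passed, where 1.59% of all genes changed in either direction, with 1 at an unadjusted p under 0.05 (HSP17.6A). DESeq2 gave no member an adjusted p in that comparison, so it could not call one. The median log2 difference of the 7 members was -0.33 in mrg1 mrg2, -0.04 in pif4 and -0.62 in mrg1 mrg2 pif4, against 0, 0.01 and 0.01 over all genes tested. The HSP17.6C call was lost without WT 28 °C replicate 2 (-1.12, 0.198) and without mrg1 mrg2 28 °C replicate 1 (0.0822) or 2 (0.0514). The HSP23.5 call was lost by DESeq2 (0.131) and without WT 28 °C replicate 2 (-0.43, 0.325) or mrg1 mrg2 pif4 28 °C replicate 1 (-0.42, 0.301).

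HSP17.6A in pif4 at 28 °C had the largest fitted difference from WT at this temperature among the 7 members tested, at 3.41 and 3.55 CPM against 1.31 and 1.11. The log2 difference was 1.56 ± 0.44, and its adjusted p of 0.0572 just missed the threshold. It passed under 4 of the 21 alternatives that gave an adjusted p, among them only the groups compared (0.0448) and a replicate block (0.0329). Over the 21 the log2 difference ran from 1.49 to 1.65. Between the libraries labelled pif4 and mrg1 mrg2 pif4 at 28 °C, HSP17.6A fell by 2.19 ± 0.45 in the latter (adjusted p = 0.000723, and 0.0407 by DESeq2). HSP17.4 fell there too, by 0.94 ± 0.30 (0.0408), a call lost by DESeq2 (0.275) and without pif4 28 °C replicate 1 (0.21) or 2 (0.104) or mrg1 mrg2 pif4 28 °C replicate 1 (-0.65, 0.317). These are 2 of 7 members, where 6.03% of all genes fell, and the members' median was -0.78 against 0 over all genes. Between mrg1 mrg2 pif4 and mrg1 mrg2 at 28 °C, 0 of 7 passed, where 9.95% of all genes changed, with 0 at an unadjusted p under 0.05. DESeq2 gave an adjusted p to HSP17.8 and HSP23.5 alone there and called neither.

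Seed storage transcripts, like HSP17.6A, were highest in the pif4 libraries at 28 °C. The 10 genes of a seed storage and oil body list summed to 70.6 and 74.9 CPM there and to 0.88 to 8.37 CPM in the other 14 libraries. In WT the sum was 7.83 to 8.37 CPM at 22 °C and 7.26 to 7.79 at 28 °C, while HSP17.6A went from 0.285 ± 0.104 to 1.21 ± 0.139 CPM. CRA1, a cruciferin gene, had 406 and 289 reads in pif4 at 28 °C against 25 and 33 in WT, and CRU3 had 250 and 214 against 11 and 11. Of the 5 list genes tested, 4 rose in pif4 against WT at 28 °C, where 1.59% of all genes changed in either direction. In mrg1 mrg2 pif4 against pif4 4 of them fell, where 6.03% of all genes fell. In these libraries 3 of the 10 genes were at 0, against 3 to 8 in the others. SESA1 had 0 reads in all 16 libraries and CRB 0 to 2 per library, so their lack of reads in pif4 at 28 °C is uninformative. SESA5 had 54 and 23 reads in pif4 at 28 °C against 4 and 0 in WT, and OLEO1 14 and 14 against 2 and 0. OLEO2, the tested list gene that did not pass, had 17 and 8 against 17 and 9. HSFA9, a heat shock factor of maturing seeds, had 1 and 0 reads in pif4 at 28 °C. HSP17.4 was also highest in the pif4 libraries at 28 °C (5.82 and 5.08 CPM against 4.52 and 3.76 in WT), a difference that did not pass (0.45 ± 0.30, adjusted p = 0.628). The part of seed transcripts in these levels was not tested.

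**Figure D5:**
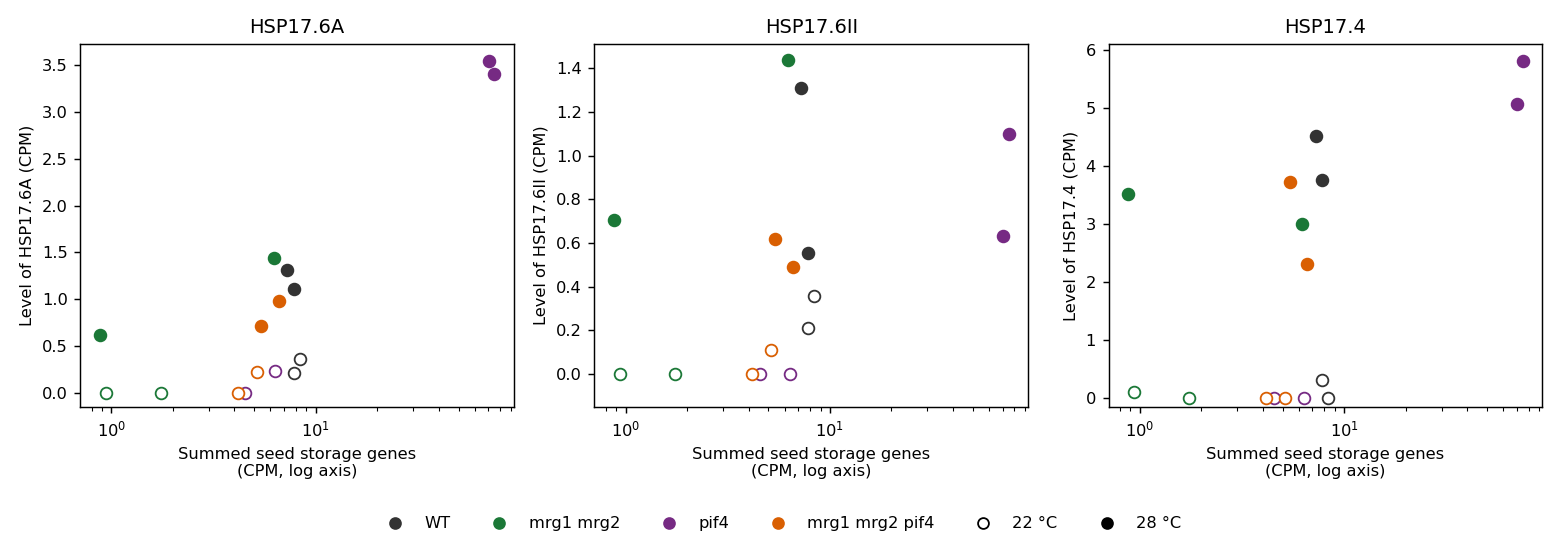
Level in CPM (y axis, one scale per gene) of HSP17.6A, HSP17.6II and HSP17.4 in each of the 16 libraries against the summed CPM of 10 seed storage genes (x axis, log), by genotype (colour) and temperature (open 22 °C, filled 28 °C). The pif4 libraries at 28 °C stand at 70.6 and 74.9 CPM of seed transcripts and are the highest for HSP17.6A and HSP17.4 but not for HSP17.6II.

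The difference in warm response between a mutant and WT did not pass the test for any member. The 3 differences in response gave 0 of 7 members each, where 4.81% (mrg1 mrg2), 4.1% (pif4) and 5.83% (mrg1 mrg2 pif4) of all genes changed. At an unadjusted p under 0.05 there were 1, 2 and 1 members. DESeq2 gave an adjusted p to HSP23.5 alone in mrg1 mrg2, and did not call it. In pif4 and mrg1 mrg2 pif4 it gave none to any member, so it could not call one. The smallest p was that of HSP23.5 in pif4, whose log2 rise was greater than in WT by 1.49 ± 0.45 (adjusted p = 0.0502). It passed under 10 of the 21 alternatives that gave an adjusted p, among them no filter (0.0417), only the groups compared (0.0471) and a replicate block (0.0308). Over the 21 the log2 difference ran from 1.06 to 2.26. The level of HSP23.5 at 28 °C in pif4 was 11.9 ± 1.37 CPM against 14.5 ± 2.14 in WT, and at 22 °C 0.984 ± 0.56 against 3.5 ± 0.891.

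Sums by compartment are given as levels, without a test. The 4 class I genes summed to 3.56 ± 0.806 CPM (SD, n = 2) in WT at 22 °C and 14 ± 0.354 at 28 °C. The mitochondrial pair went from 3.5 ± 0.891 to 15 ± 1.91 CPM in WT and from 1.04 ± 0.477 to 13 ± 1.13 in pif4. The class II pair reached 2.14 ± 0.672 CPM in WT at 28 °C, 2.1 ± 1.11 in mrg1 mrg2, 4.36 ± 0.233 in pif4 and 1.4 ± 0.099 in mrg1 mrg2 pif4. All 10 together reached 31.6 ± 1.34 CPM in WT at 28 °C, 26.3 ± 2.26 in mrg1 mrg2, 32.8 ± 0.566 in pif4 and 22 ± 3.96 in mrg1 mrg2 pif4.

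Of 9 other genes of the same superfamily 8 were tested, and 0 fell in warmth. Of these 8, 5 rose in WT, 5 in mrg1 mrg2, 7 in pif4 and 5 in mrg1 mrg2 pif4. Shares of 13.3%, 12.8%, 13.2% and 12.9% of all genes tested rose in the same order. The median log2 change of the 8 was 1.26, 1.05, 1.33 and 0.88. HSP18.5 rose from 23.1 ± 3.17 to 55.4 ± 4.34 CPM in WT (log2 1.32 ± 0.10, adjusted p = 6.49e-14). It was higher in mrg1 mrg2 than in WT, at 22 °C (0.56 ± 0.10, adjusted p = 2.93e-05) and at 28 °C (0.48 ± 0.09, 0.000118). HSP17.6A-CI, the class I gene that shares runs with HSP17.8 and HSP17.6C, rose by 1.74 ± 0.41 in WT (0.00123).

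Of 14 heat response regulators 11 were tested, and 6, 7, 5 and 7 rose in WT, in mrg1 mrg2, in pif4 and in mrg1 mrg2 pif4, while 1, 0, 0 and 1 fell. Of all genes tested, 13.3%, 12.8%, 13.2% and 12.9% rose in the same order. The coactivator gene MBF1C had the smallest p in WT and rose from 7.71 ± 0.928 to 48.2 ± 1.49 CPM (log2 2.69 ± 0.12, adjusted p = 1.01e-19). HSFB2B, a repressing heat shock factor, rose by 1.05 ± 0.17 in WT. Of the 10 partner chaperones, 8, 7, 7 and 7 rose in warmth, against those shares of all genes, and 1 fell in each genotype. The one that fell was CLPB3, which encodes a plastid disaggregase and is named here after its values were seen. HSP70 rose by 2.52 ± 0.08, the co-chaperone HOP3 by 2.74 ± 0.11, HSP90.1 by 2.12 ± 0.13 and the disaggregase HSP101 by 1.62 ± 0.13 on the log2 scale in WT. Of all genes tested at 28 °C, 7.4% were lower in mrg1 mrg2 than in WT and 6.55% in mrg1 mrg2 pif4. In pif4, 1.59% changed in either direction. Of the 10 chaperones, 6 were lower at 28 °C in mrg1 mrg2 than in WT, 0 in pif4 and 4 in mrg1 mrg2 pif4. HSP101 was among them, at 37.3 ± 5.78 CPM in WT, 22 ± 2.02 in mrg1 mrg2 (adjusted p = 3.45e-06) and 22.7 ± 0.294 in mrg1 mrg2 pif4 (3.64e-06).

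The genes whose level over the 16 libraries followed the mean z-score of the 7 tested members most closely were AT2G20560 (Pearson r = 0.965), PCME (0.964), HOP3 (0.963), HSP90.1 (0.959) and AT3G24100 (0.958). These values are a description over libraries that fall into the temperature groups. Within a temperature, r between pairs of the 7 members ran from -0.58 to 0.80 over the 8 libraries at 22 °C (median 0.35) and from -0.57 to 0.70 at 28 °C (median 0.34).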

How the data were processed

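RNA-seq reads were counted per gene by the authors, who deposited raw counts for 33602 genes in 16 libraries of 8 groups, and the submitters' processing notes name cutadapt, HISAT2, SAMtools, featureCounts and TAIR10. The sources used here give neither their versions nor the strand setting. The labels name a stranded mRNA kit. From the counts, edgeR 4.0.16 in R 4.3.3 fitted 1 quasi-likelihood model over the 8 groups (TMM scaling, filterByExpr with a minimum count of 10 and a total of 15, no replicate block), with Benjamini-Hochberg adjustment over 20075 genes and a threshold of 0.05. A standard error is the log2 change divided by the square root of F. All 10 members were named in every comparison. Of other genes, at most the 4 with the smallest p per list and comparison were named, and the 5 nearest to the members' mean z-score on log2(CPM + 0.5). The members and lists were chosen with earlier results of these data known. The scripts were tested on simulated data. Alternatives were DESeq2 1.42.0, RLE scaling, no filter, only the groups compared, a replicate block, removal of a ribosomal RNA gene and leaving out each library. Promoters were read from the RefSeq genome TAIR10.1.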

Additional observations from a re-analysis of the deposited data

Results flagged for a closer look

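No member of the small heat shock protein genes had a warm response that passed a test of its difference between a mutant and WT, while genes of the lists set beside them did. The lack of a call is not a smaller difference. HSP23.5 differed from WT by 1.49 ± 0.45 in pif4 and 1.29 ± 0.47 in mrg1 mrg2 pif4 on the log2 scale. The members' standard errors, 0.41 or more, were larger than those of HSP90.1 and HSP70. HSP90.1, a cytosolic chaperone of the HSP90 family, rose more than in WT in mrg1 mrg2 (by 1.02 ± 0.19 on the log2 scale, edgeR's quasi-likelihood test, adjusted p = 0.000629), in the libraries labelled pif4 (0.98 ± 0.19, 0.00119) and in those labelled mrg1 mrg2 pif4 (1.12 ± 0.20, 0.000169). These 3 differences share the WT libraries. HSP70 rose more in mrg1 mrg2 (0.45 ± 0.12, 0.0193). Both genes were lower than in WT at 22 °C in each mutant. At 28 °C HSP70 was still lower in mrg1 mrg2 than in WT (-0.63 ± 0.07, 6.03e-08). HSP90.1 did not pass against WT there in mrg1 mrg2 (0.03 ± 0.11), pif4 (-0.05 ± 0.11) or mrg1 mrg2 pif4 (-0.26 ± 0.11). The seed storage genes CRA1 (3.77 ± 0.48, 8.85e-07), CRU3 (5.05 ± 0.67, 2.63e-06) and SESA5 (9.42 ± 1.67, 0.00033) rose more in the libraries labelled pif4. SESA5 had 0 reads in pif4 at 22 °C, so the size of its value depends on the prior count.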

How the results depend on the processing

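Of 2223 recomputed log2 values of the 7 tested members (105 results under up to 22 alternatives), 2172 kept their side of the threshold, 37 lost a call and 14 gained one. No called value changed sign, while 39 uncalled values among the 2172 did. The cause of these changes was not tested. DESeq2 called 3 members in the warm response of pif4, 0 in mrg1 mrg2 against WT and 0 in mrg1 mrg2 pif4 against WT at 28 °C, and 1 in mrg1 mrg2 pif4 against pif4. In the warm response of pif4 it gave an adjusted p for HSP17.4, HSP17.8 and HSP23.5 alone. In mrg1 mrg2 against WT at 28 °C it gave none for HSP17.6C, the member called by edgeR, so DESeq2 could not call that difference. With no filter, 1 member passed in the difference of response of pif4. With only the groups compared, 3 of 4 tested members rose in mrg1 mrg2, and 1 passed in pif4 against WT at 28 °C and in the difference of response of pif4. Over all genes tested, deviations between replicates 1 and 2 correlated little between groups (-0.01 to 0.08 over 28 pairs of groups). The count share of the ribosomal RNA gene AT3G41768 was nevertheless higher in replicate 2 than in replicate 1 of each group. In WT at 28 °C it was 9.09% against 5.96%. With a replicate block 1 member passed in pif4 against WT at 28 °C (HSP17.6A, adjusted p = 0.0329) and 1 in the difference of response of pif4 (HSP23.5, 0.0308). Leaving out 1 library gave 4 to 5 risen members in WT, 5 to 6 in mrg1 mrg2, 6 in pif4 and 4 to 6 in mrg1 mrg2 pif4. It gave 0 to 1, 0 to 1 and 1 to 2 changed members in the mutants against WT at 22 °C, 0 to 1 in each at 28 °C, 1 to 2 in mrg1 mrg2 pif4 against pif4, and 0 to 1 in the difference of response of pif4. A lone remaining library was assumed to vary like the other groups. Over all genes, DESeq2 called 1774 against 2830 in mrg1 mrg2 and 1440 against 2377 in mrg1 mrg2 pif4, each against WT at 28 °C. With 2 libraries per group and 0 to 5 reads per group for most members at 22 °C, differences between genotypes there are beyond this depth for all but HSP17.8, HSP18.2 and HSP23.5.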
